A study of Drosophila melanogaster with 2 samples.

Results

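Distal intronic peaks of the ssp-eGFP fusion protein were the 913 peaks whose summit lay inside a gene, in no annotated exon of any transcript, and more than 2000 bp from the nearest transcription start site (TSS) of any gene. They were 18.6% of the 4914 peaks on the arms 2L, 2R, 3L, 3R, 4 and X in the authors' combined list (95% Wilson interval 17.5 to 19.7%). The study comprised 2 biological replicates of Drosophila melanogaster embryos, collected whole at 0 to 24 h from transgenic flies carrying an insertion that targets ssp. Chromatin was sheared by sonication and precipitated with an antibody to GFP. Both samples form 1 group, so every comparison below is between sets of peaks, and all samples carried the fusion. The embryos were mixed in age and tissue, and a peak cannot be assigned to a cell type. The control library that the labels name was not analysed here.

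The gene ssp, also called sunspot, encodes a nuclear protein that in Drosophila has been described as a link between Wingless signalling and endoreplication through the E2f1 gene. Long introns of fly genes hold many of the enhancers that direct expression in the embryo, and also alternative promoters. Chromatin immunoprecipitation can recover such sites when the protein binds them directly, when it is carried there by a partner, or when open chromatin is recovered non-specifically, and a peak list does not tell these apart.

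The sequences below show what the summits of strong distal intronic peaks looked like, since a drop in GC content at the summit was the most general sequence feature of the set. Each is the plus strand of the dm6 assembly, taken from the RefSeq genome of the same assembly, 60 bp to each side of the summit. They are 8 of the 20 strongest peaks that both replicate lists also held, chosen, after their sequences were seen, to cover a range of GC content. Capitals mark CACTG or its reverse complement CAGTG, and ATCGAT, the core of the DRE (DNA replication-related element), a common motif of fly housekeeping promoters.
nAChRalpha4, chr3L:23258631-23258751: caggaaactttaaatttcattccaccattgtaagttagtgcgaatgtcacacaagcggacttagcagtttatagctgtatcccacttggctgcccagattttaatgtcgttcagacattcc
AGO3, chr3L:23580777-23580897: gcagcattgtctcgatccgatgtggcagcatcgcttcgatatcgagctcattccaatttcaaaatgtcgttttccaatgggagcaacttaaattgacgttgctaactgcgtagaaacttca
Tlk, chrX:3742165-3742285: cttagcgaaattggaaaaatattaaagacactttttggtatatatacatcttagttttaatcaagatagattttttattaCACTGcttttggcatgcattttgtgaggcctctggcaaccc
CG32486, chr3L:3060753-3060873: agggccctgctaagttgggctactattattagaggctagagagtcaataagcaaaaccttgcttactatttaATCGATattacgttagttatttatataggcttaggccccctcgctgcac
Myo81F, chr3R:2074612-2074732: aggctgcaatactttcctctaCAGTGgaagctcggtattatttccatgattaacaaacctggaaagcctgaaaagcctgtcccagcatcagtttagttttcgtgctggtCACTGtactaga
Gug, chr3L:8458251-8458371: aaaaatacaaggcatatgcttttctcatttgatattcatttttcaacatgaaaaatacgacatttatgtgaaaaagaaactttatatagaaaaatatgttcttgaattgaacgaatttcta
CG33158, chr3L:16480514-16480634: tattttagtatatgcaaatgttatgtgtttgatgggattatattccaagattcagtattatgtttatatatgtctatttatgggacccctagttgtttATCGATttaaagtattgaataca
CG32264, chr3L:3785133-3785253: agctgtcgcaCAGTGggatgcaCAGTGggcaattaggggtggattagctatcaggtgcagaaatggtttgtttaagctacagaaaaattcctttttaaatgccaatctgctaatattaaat

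The GC content of these 121 bp was 23.1% at Gug, 26.4% at CG33158, 32.2% at Tlk and 39.7% at CG32264. It was 41.3% at nAChRalpha4 and at CG32486, and 43.8% at AGO3 and at Myo81F. Within 50 bp of the summit, nAChRalpha4 (40.6%), CG32264 (41.6%), Myo81F (43.6%) and AGO3 (44.6%) were above the 40% of all distal intronic territory. The other sequences shown were below it. In the 121 bp shown, the CG32264 sequence held 2 copies of CAGTG on the strand shown, the Myo81F sequence held CAGTG and CACTG, and the Tlk sequence held CACTG. The CACTG of Myo81F reached beyond 50 bp from the summit. The DRE core was present at CG32486 and at CG33158. It was infrequent in the whole set, within 50 bp of the summit in 26 of 913 peaks (2.85%, 1.95 to 4.14%), against 2.19% of unthresholded candidates of the same class that were not called and 11.9% of peaks within 500 bp of a TSS. The nAChRalpha4, AGO3 and Gug windows held neither of the marked motifs.

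Distal intronic peaks were mostly weak peaks of the combined list. Their median signal, the value that the authors' peak caller gave each peak, was 111 (quartiles 83.2 and 170), against 129 for the 567 intronic peaks 500 to 2000 bp from a TSS, 109 for the 767 intergenic peaks over 500 bp from a TSS and 166 for the 2459 peaks within 500 bp of a TSS. The median over all 4914 peaks was 133. Among the 491 strongest peaks, which is the top 10% of the list and begins at a signal of 534, there were 13 distal intronic peaks, or 1.42% of them (0.834 to 2.42%). The share was 4.59% of nearer intronic peaks, 4.17% of intergenic peaks and 16.9% of TSS peaks. The differences were −3.16 percentage points from nearer intronic peaks (Newcombe 95% interval −5.29 to −1.41), −2.75 points from intergenic peaks (−4.51 to −1.19) and −15.5 points from TSS peaks (−17.1 to −13.7). These intervals cover counting error over peaks only. The strongest distal intronic peak, at nAChRalpha4, ranked 136 in the list.

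**Figure D1:**
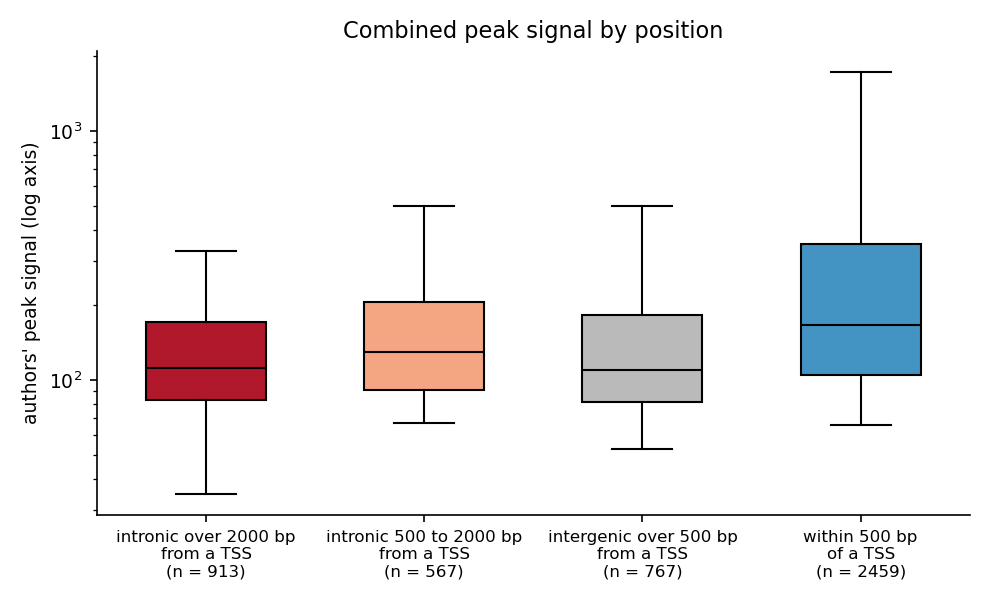
Authors' combined peak signal on a log axis for 4 positional classes of peaks, with boxes at the quartiles, a line at the median and whiskers at the 5th and 95th percentiles. Distal intronic peaks have a median of 111 and few high values, nearer intronic peaks a median of 129, intergenic peaks 109 and TSS peaks 166.

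Candidates of this class were seldom called. The authors' ranked list held 36634 candidates that met the positional rule, of which 913 passed the IDR (irreproducible discovery rate) threshold, or 2.49%. Over all classes 3.88% of 126647 candidates passed. The share was 5.87% for nearer intronic candidates, 2.42% for intergenic candidates, 13.5% for TSS candidates and 0.685% for exonic candidates, so distal intronic and intergenic candidates were close to each other and under the share over all classes. The 35353 candidates of the distal intronic class that overlapped no thresholded list served as background and are called failing candidates.

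Of the distal intronic peaks, 386 (42.3%, 39.1 to 45.5%) were overlapped by a peak in both replicate lists. A further 154 were overlapped in replicate 1 alone and 108 in replicate 2 alone, and 265 (29.0%) were in neither list. Of all 4914 peaks, 56.5% were in both lists, 702 in replicate 1 alone, 488 in replicate 2 alone and 19.3% in neither. Nearer intronic peaks were overlapped in both lists in 54.7% of cases, intergenic peaks in 44.9% and TSS peaks in 68.5%. The difference was −12.4 points from nearer intronic peaks (−17.5 to −7.16), −26.2 points from TSS peaks (−29.8 to −22.5) and −2.57 points from intergenic peaks, where the interval (−7.32 to 2.18) includes 0. Signal moved with this share. With all peaks split at the quartiles of their signal, 4.98% of distal intronic peaks were in both lists at signals up to 89.4, 24.6% from there to 133, 84.8% from there to 246, and 100% of 103 above 246. Above 246 99.5% of TSS peaks were in both lists, a difference of 0.466 points (−3.14 to 1.19). Up to 89.4 the difference from TSS peaks was −12.0 points (−16.4 to −7.44). Only 15 distal intronic peaks were in both lists there, and 14 of them had a signal under 20. Every distal intronic peak under 20 had a stronger neighbour within 1 kb, so the overlapping replicate peak may be that of the neighbour. TSS peaks under 20 numbered 53, and the part of such neighbours in the difference was not tested.

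The 265 distal intronic peaks in neither replicate list had a median combined signal of 78.8 and a highest signal of 128. All of them overlapped an unthresholded candidate of at least 1 replicate, and 256 (96.6%) overlapped a candidate in both. Over all 913, 892 (97.7%) did so, a difference of −0.917 points from TSS peaks, with an interval (−2.17 to 0.0420) that includes 0. Nearly all peaks thus overlapped a candidate in each replicate. Such candidates are dense, since failing candidates of the combined ranked list alone stood at 854 per Mb of this territory. The overlap that this density would give at any position was not computed. These shares are therefore a description and do not show that a peak was reproduced. The authors' conservative list overlapped 772 of the 913 (84.6%), against 87.0% of all 4914 peaks.

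In the 386 peaks found in both lists, replicate 2 signal was lower than replicate 1 signal at 289. On the log2 scale the median of replicate 2 over replicate 1 was −0.21 (SD over peaks 0.32), the same as over all 2776 peaks found in both lists (−0.21, SD 0.32). No scaling between these lists is stated, so a common offset may be one of scale. Spearman's rho between the replicate signals was 0.840 across the 386 peaks, given as a description, since both lists come from the same positions of 1 genome.

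**Figure D2:**
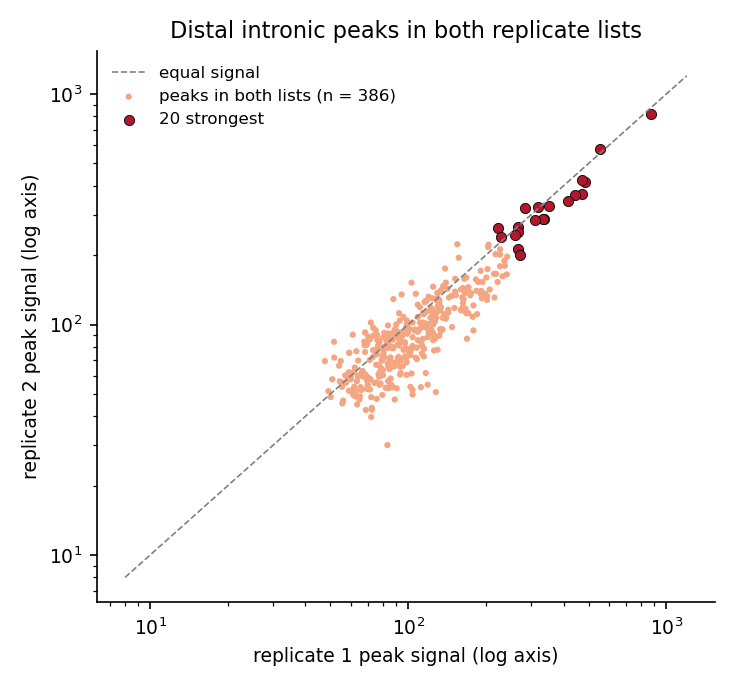
Replicate 1 signal against replicate 2 signal on log axes for the 386 distal intronic peaks overlapped in both replicate lists, with the 20 strongest by combined signal in dark red and a dashed line of equal signal. Most points lie under the line, with a median log2 ratio of −0.21, and the 20 strongest have a median of −0.12.

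The 20 strongest of these peaks lay in 15 genes, had combined signals of 463 to 1691 and ranked 136 to 579 among all peaks. Replicate 2 over replicate 1 had a median of −0.12 on the log2 scale there (SD 0.18). The nAChRalpha4 peak, in an intron of a nicotinic acetylcholine receptor subunit gene, had a signal of 870 in replicate 1 and 818 in replicate 2, and 1691 in the combined list. Its summit lay in an annotated transposable element, 9662 bp from the nearest TSS. The next was in AGO3, which encodes an Argonaute protein of the piRNA pathway, with 552 in replicate 1, 576 in replicate 2 and 1129 combined. In these 2 peaks the replicates differed by less than the SD of the ratio over peaks.

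CG12769 followed with a combined signal of 898 (486 in replicate 1 and 414 in replicate 2), and Tlk, which encodes Tousled-like kinase, with 894 (470 and 423 in replicates 1 and 2). The peak of 844 lay where Hr3, a nuclear receptor of the ecdysone response, overlaps CG12912 and CG46321. CG32486 had 813 and Raf, the kinase of the MAPK cascade downstream of receptor tyrosine kinases, had 764. The peak of 630 lay where CG33158 and aos overlap, and aos encodes Argos, a secreted inhibitor of the EGF receptor. Gug, which encodes the corepressor Atrophin, held a peak of 640, and simj, a subunit of the NuRD chromatin remodelling complex, held a peak of 499. Both replicate lists held all of these, and at Hr3 the signal was 471 in replicate 1 and 369 in replicate 2. Of the 20, 11 lay in the first intron of at least 1 transcript, and 6 lay within 5 Mb of a centromeric arm end.

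Introns over 2000 bp from any TSS covered 41.4 Mb of the 6 arms, or 30.9% of them, and held 22.1 peaks per Mb (exact Poisson 95% interval 20.6 to 23.5). Intronic territory 500 to 2000 bp from a TSS held 49.6 per Mb (45.6 to 53.9), and all peaks together 36.7 per Mb of the arms. The density of distal intronic peaks was 28.7 per Mb at 2 to 3 kb from a TSS, 29.7 at 3 to 5 kb, 24.3 at 5 to 10 kb, 16.8 at 10 to 20 kb, 16.5 at 20 to 50 kb and 9.34 (6.5 to 13.0) beyond 50 kb. The density of failing candidates did not fall in the same way, with 830 per Mb at 2 to 3 kb, 916 at 10 to 20 kb and 603 beyond 50 kb. The share of candidates called was 3.29% at 2 to 3 kb and 1.52% beyond 50 kb.

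The lowest density rested on few genes, since the 35 peaks beyond 50 kb lay in 12 genes. With the 5 Mb at each centromeric end and chromosome 4 left out, 2 peaks in 0.0923 Mb lay beyond 50 kb, or 21.7 per Mb (2.62 to 78.3). That interval includes 9.34, so beyond 50 kb distance cannot be told apart from position at those ends. The densities nearer a TSS were 29.5 per Mb at 2 to 3 kb, 25.5 (22.5 to 28.9) at 5 to 10 kb, 18.1 (15.2 to 21.5) at 10 to 20 kb and 18.4 at 20 to 50 kb, so the step at 10 kb was present without them. The median distance of a distal intronic peak from a TSS was 5765 bp (quartiles 3534 and 11382, largest 254049). Across the 913 peaks Spearman's rho of distance and signal was −0.018, given as a description.

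**Figure D3:**
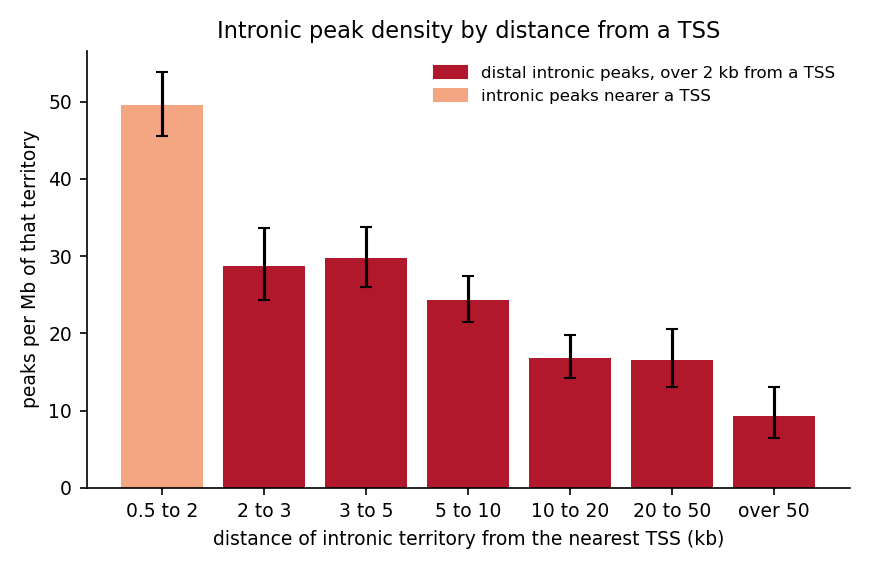
Intronic peaks per Mb of intronic territory at increasing distance from the nearest TSS, with exact Poisson 95% intervals. Territory 0.5 to 2 kb from a TSS has 49.6 peaks per Mb, and the distal intronic classes run from 28.7 per Mb at 2 to 3 kb to 9.34 per Mb beyond 50 kb.

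At the cut of 2000 bp the nearest peaks inside were in RhoGAP18B (2002 bp, signal 187), Dys (2004 bp, 129) and CG43658 (2007 bp, 80.8). The nearest outside were in toc (1998 bp, 76.7), RhoU (1987 bp, 106) and shot (1984 bp, 69.1).

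Density differed among chromosome arms. The X chromosome had 25.7 per Mb (22.3 to 29.5), 3L had 25.5, 2R had 23.3, 2L had 21.8 and 3R had 17.1 (14.8 to 19.7). Chromosome 4, a small and largely heterochromatic chromosome, held 1 distal intronic peak in 0.445 Mb, or 2.25 per Mb (0.0569 to 12.5), although its 60 peaks of all classes gave 44.5 per Mb. It also held 12 failing candidates of the class, 26.9 per Mb against 854 per Mb over all arms. The 1 peak was in Cadps, a gene of dense-core vesicle release, with a signal of 267 in replicate 1, 266 in replicate 2 and 521 combined. Its summit lay in an annotated transposable element. The 5 Mb at the centromeric ends of 2L, 2R, 3L, 3R and X held 110 peaks at 12.5 per Mb (10.3 to 15.1), against 24.6 per Mb (23.0 to 26.4) elsewhere. Those 110 peaks had a median signal of 136 against 107 elsewhere, and 60.9% against 39.7% were in both replicate lists.

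Summits in annotated transposable elements were few. They numbered 14 (1.53%, 0.916 to 2.56%), against 1.64% of the failing candidates, while such elements covered 8.33% of the territory. AGO3 held 4 of the 14, nAChRalpha4 held 2, and the Cadps peak was another. How reads from repeated sequence were placed is not given in the sources used here, and its part in these counts was not tested.

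Distal intronic peaks were found in the first intron more often than failing candidates of the same class. The first intron of at least 1 transcript held 476 of 913 (52.1%, 48.9 to 55.4%), against 39.5% of 35353 failing candidates, a difference of 12.6 points (9.34 to 15.9). They lay near an exon less often, with 3.29% of summits within 200 bp of the edge of their intron against 7.58%. The median length of the shortest intron around a summit was 15749 bp for the peaks and 16628 bp for the failing candidates. Distance from a TSS moves with intron order, and its part in the difference was not tested.

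Some distal intronic peaks lay close to one another. Of the 912 with another distal intronic peak on the same arm, 428 (46.9%) lay within 10 kb of it and 157 (17.2%) within 1 kb. Of the 39 peaks with a signal under 20, all had another peak of any class within 1 kb, at a median of 204 bp, and that neighbour was stronger in all 39. Among the 874 with a signal of 20 or more, 132 (15.1%) had a peak within 1 kb. Where 2 such peaks overlap the same replicate peak they share its signal, so they are not separate measurements.

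The 913 peaks lay in 512 genes, of which 501 were protein-coding. A single peak was present in 309 genes, 203 genes held 2 or more, and the 23 genes with 5 or more held 150 peaks. For the 46 peaks that lay in several genes, the longest protein-coding gene was taken as host. Myo81F, a myosin gene that spans the heterochromatic end of 3R, held 20 peaks, 16 of them in both replicate lists, with signals of 21.4 to 685. Its 1938 kb of distal introns made this only 1.03 peaks per 100 kb. Without that gene the density over all territory was 22.6 per Mb in place of 22.1.

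Raf was the densest of the 10 genes with the most peaks. It held 7 in 24.5 kb, or 28.6 per 100 kb, with signals of 764, 520, 214, 211, 184, 135 and 81.7, and 5 of the 7 were in both replicate lists. The gene sbb, which encodes the nuclear protein Scribbler, held 7 in 46.8 kb (15 per 100 kb), and Hr4, a nuclear receptor, held 6 in 45.1 kb (13.3 per 100 kb). In Hr4 the signals were 117 to 415 and 5 of 6 peaks were in both lists. The adhesion gene kirre, which acts in myoblast fusion, held 11 peaks in 288 kb, of which 4 were in both lists. The Krüppel-like factor gene luna held 7 peaks with signals of 3.91 to 154, of which 1 was in both lists. The others were lovit with 7 peaks, and AGO3, CG1677 and ed with 6 each. The genes ftz-f1 and mew also held 6 and came after these only by alphabet.

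Several large genes held none. The gene with the most distal intronic territory and no peak was pum, a translational repressor gene with 145 kb, followed by CG40470 with 134 kb and dpr8 with 128 kb. Parp1, with 121 kb, held no distal intronic peak although a peak lay within 500 bp of its TSS. The ssp gene itself, at 12118257 to 12119789 on 3L of dm6, has no intronic territory over 2000 bp from a TSS. The nearest distal intronic peak lay 40737 bp away, in Sema5c.

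A peak at the gene's own TSS was more frequent in host genes among long genes. Of protein-coding genes with over 20 kb of distal intron, 84 of 266 hosts (31.6%) had a peak within 500 bp of a TSS, against 49 of 306 other genes (16%), a difference of 15.6 points (8.60 to 22.4). Among genes with 5 to 20 kb a TSS peak was present in 30.3% of hosts and 23.7% of other genes (difference 6.53 points, −0.511 to 14.2). Over all lengths it was 31.6% of 522 hosts and 27.5% of 3694 other genes (difference 4.11 points), with an interval that just includes 0. Genes with a TSS peak held 28.1 distal intronic peaks per Mb (25.1 to 31.4), and genes without one held 19.8 (18.3 to 21.5). Hosts over all lengths had an average of 2.20 TSSs and other genes 1.71, and the part of TSS number in these differences was not tested.

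Gene groups differed in how densely their introns were occupied. The groups are partial lists of genes. Raf (764), Tlk (894) and Gug (640), named above, were in none of them. Protein-coding genes with any distal intronic territory numbered 4216, of which 522 (12.4%) held a peak, at 22.0 peaks per Mb. Here a peak in overlapping genes counts for each of them, which gives more genes than the 501 protein-coding hosts above. The listed genes of the Wingless, Notch, EGFR, TGF-beta, Hedgehog and Hippo pathways held 56 peaks in 0.984 Mb. This was 56.9 per Mb (43.0 to 73.9), in 28 of 71 genes. Chromatin and transcription regulators held 15 peaks at 48.8 per Mb (27.3 to 80.6), in 10 of 55 genes, and simj alone held 4 of the 15. A peak was present in 39.4% of the signalling genes (28.9 to 51.1%) and in 18.2% of the chromatin genes (10.2 to 30.3%). For the chromatin genes this interval includes the 12.4% of all genes. In the list of replicate 1 alone the signalling genes held 32.5 per Mb and the chromatin genes 35.8, against 13.7 for all genes. In the list of replicate 2 alone the signalling genes held 30.5 per Mb and the chromatin genes 52.1, against 13.0 for all genes. None of these 4 intervals included the value of all genes. Between 2 and 10 kb from a TSS the signalling genes held 68.4 per Mb (50.3 to 91.0) and the chromatin genes 65.3 (34.8 to 112), against 27.1 for all genes. The intervals treat peaks as independent, and peaks in 1 gene may not be.

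Among the listed signalling genes the strongest peaks were in aos (630) and in fz, which encodes the Wingless receptor Frizzled (427). Next came mam, a Notch coactivator (370), and N, the Notch receptor itself (314). The mam peak had a signal of 201 in replicate 1 and 160 in replicate 2, and the N peak 174 in replicate 1 and 134 in replicate 2. The gene fz held 4 distal intronic peaks in 82.4 kb and N held 1 in 26.2 kb. Among the listed chromatin regulators, simj (499) was followed by the Polycomb group gene Psc (252). Then came the remodeller gene Mi-2 (251, where it overlaps Su(Tpl)) and the histone methyltransferase gene trx (198). All of these were present in both replicate lists.

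Developmental transcription factors held 81 peaks at 30.8 per Mb (24.5 to 38.3), in 37 of 124 genes, led by Hr3 (844, the peak shared with CG12912 and CG46321), Hr4 (415), sr (410) and the ETS repressor gene aop (407). In the list of replicate 1 alone their density was 17.9 per Mb (13.1 to 23.8) against 13.7 for all genes, in that of replicate 2 alone it was 17.5 (12.8 to 23.3) against 13.0, and between 2 and 10 kb from a TSS it was 32.8 (24.5 to 43.1) against 27.1. Each of these intervals includes the value of all genes. Cytoskeleton and muscle genes held 31.5 per Mb (19.9 to 47.2), led by the integrin gene mew (231). The listed kinase, cyclic nucleotide and learning genes held 23.9 (15.6 to 35.0), led by mnb (384) and the phosphodiesterase gene dnc (239).

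Cell cycle and DNA replication genes had little distal intronic territory, 0.0787 Mb, and held 5 peaks in 3 of 26 genes, or 63.5 per Mb (20.6 to 148). That interval includes the 22.0 per Mb of all genes, and 11.5% of the listed genes held a peak against 12.4% of all genes. The hosts were Mnt and E2f1 with 2 peaks each, and Myc with 1. The stronger E2f1 peak lay in the first intron of a transcript, 3451 bp from a TSS, with a signal of 72.3 in replicate 1, 42.7 in replicate 2 and 112 combined. The other E2f1 peak, with 96.2, was in neither replicate list, and neither was the Myc peak of 78.1. All 3 of these signals were under the median of 133 over all peaks.

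Channel, RNA-binding and adhesion genes held fewer peaks per Mb than all genes, but no smaller a share of them held a peak. The share was 31.1% of 90 axon guidance and adhesion genes (22.5 to 41.3%) and 22.5% of 40 RNA-binding genes (12.3 to 37.5%). It was 12.9% of 70 channel genes (6.91 to 22.7%), against 12.4% of all genes. Their median distal intronic territory was 25.2, 4.87 and 8.76 kb in that order, against 1.64 kb for all genes. RNA-binding protein genes held 13 peaks in 1.44 Mb, or 9.01 per Mb (4.80 to 15.4), with the splicing factor gene Rbfox1 (295) the strongest. Ion channel and receptor genes held 15 at 10.7 per Mb (6.0 to 17.7), of which nAChRalpha4 (1691) was far above Ih (159), Ca-beta (135) and Ca-alpha1T (119). Axon guidance and adhesion genes held 53 at 16.2 per Mb (12.1 to 21.2), led by kirre (352), Fas3 (244), Sema1a (244) and NetA (244). In the list of replicate 1 alone the interval for RNA-binding genes (8.32 per Mb, 4.30 to 14.5) and that for channel genes (7.86, 3.92 to 14.1) included the value of all genes, 13.7. In the list of replicate 2 alone the interval for channel genes did so too, with 7.86 (3.92 to 14.1) against 13.0. Between 2 and 10 kb from a TSS the interval for axon guidance genes did so as well, with 20.2 (14.2 to 28.0) against 27.1.

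**Figure D4:**
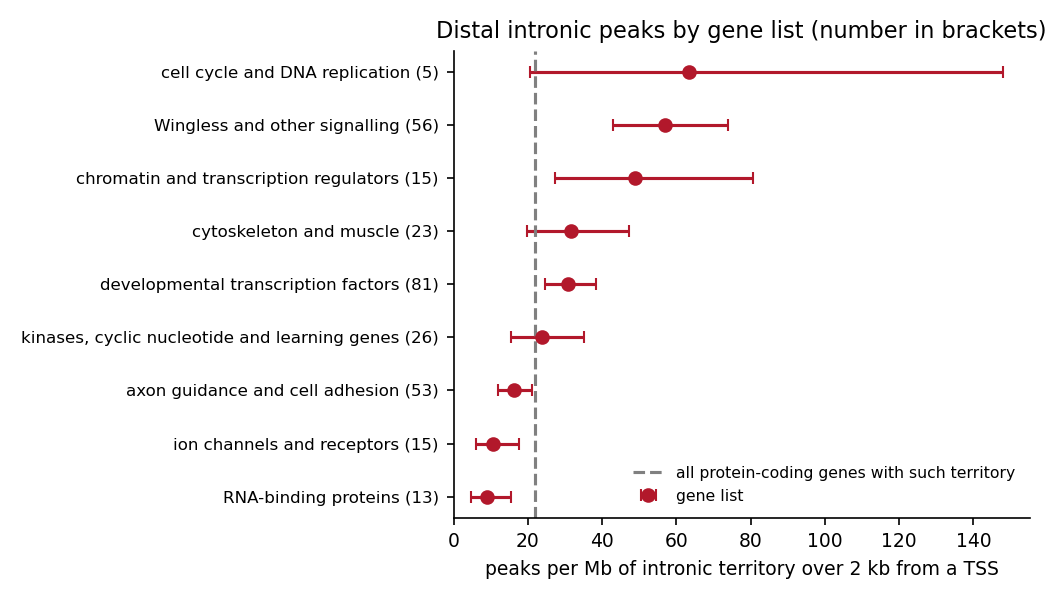
Distal intronic peaks per Mb of distal intronic territory for 9 gene lists, with exact Poisson 95% intervals and a dashed line at 22.0 per Mb for all protein-coding genes with such territory. Signalling genes (56.9 per Mb) and chromatin genes (48.8) lie to the right of the line, and channel (10.7) and RNA-binding genes (9.01) to its left.

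At the summit the distal intronic peaks were AT-rich. Within 50 bp of it the median GC content was 32.7% (quartiles 26.7 and 40.6), against 45.5% (39.6 and 50.5) for the 35353 failing candidates of the same class and 33.7% for TSS peaks. Of the peaks 671 (73.5%) had under 40% GC, against 28.0% of the failing candidates, a difference of 45.5 points (42.5 to 48.3). Nearer intronic peaks had such GC content in 81.1% of cases, a difference of −7.63 points (−11.9 to −3.24), and TSS peaks in 69.6%, a difference of 3.91 points (0.458 to 7.23). The distal intronic territory as a whole had 40% GC.

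The AT-rich stretch was narrow and had GC-richer shoulders. The mean GC content of 51-bp windows was 34.4% at the summit, 44.7% at 200 bp to either side and 39.9% at 1000 bp to the left. Failing candidates had the opposite profile, with 44.7% at the summit and 42.4% at 1000 bp. TSS peaks had 34.9% at the summit but 40.5 and 41.1% at 200 bp, so their trough was wider. The median GC content at the summit of distal intronic peaks was 40.6% in those with signals up to 83.2 and 31.7% in those with signals of 171 or more, the lowest and highest quartile of the set. It was 31.7% in the 386 peaks found in both replicate lists and 35.6% in the 265 found in neither. GC content can affect recovery and amplification of fragments as well as binding, and its part was not tested.

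**Figure D5:**
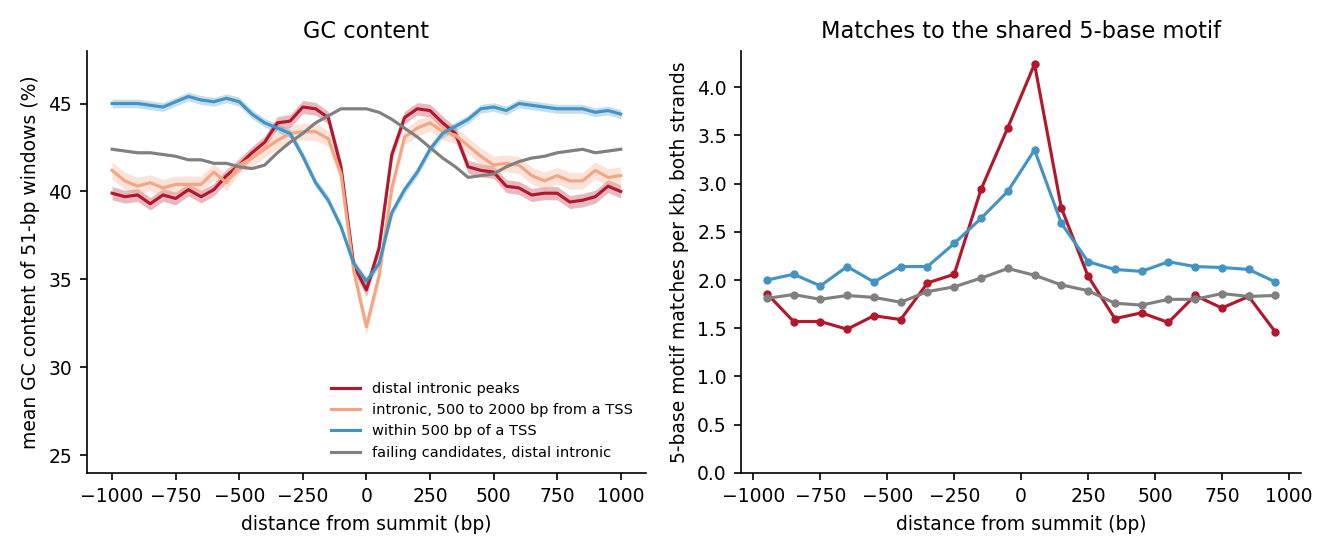
Left, mean GC content (±SE over peaks) in 51-bp windows by distance from the summit for distal intronic peaks, nearer intronic peaks, TSS peaks and failing candidates of the distal intronic class. Right, matches per kb to the 5-base motif described in the text, on both strands, for 3 of these sets; distal intronic peaks drop to 34.4% GC at the summit and reach 4.24 motif matches per kb beside it.

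Of 21 motifs searched on either strand in these windows, the DRE and Motif 1 of fly promoters were rare. TATCGATA, the DRE, was in 5 distal intronic peaks (0.548%, 0.234 to 1.28%), in 0.139% of failing candidates and in 4.84% of TSS peaks, a difference from TSS peaks of −4.29 points (−5.26 to −3.22). From failing candidates the difference was 0.409 points (0.0924 to 1.14), so on these 5 peaks the DRE was rare but above that background. CGATA, the BEAF-32 motif that lies within the DRE, was in 10.8% against 8.97% of failing candidates and 25.7% of TSS peaks. GGTCACAC, the core promoter Motif 1, was in 0.329% of distal intronic peaks, 0.167% of failing candidates and 1.99% of TSS peaks. Weighting TSS peaks to the GC content of distal intronic peaks, in steps of 5 points, gave 4.54% with TATCGATA. The difference from TSS peaks was thus slightly smaller at like GC content.

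Motifs of Wingless and cell cycle factors were not frequent. CTTTGAT, a TCF motif, was in 7 peaks (0.767%), against 1.71% of failing candidates (difference −0.939 points, −1.36 to −0.121). TTTCGCGC, an E2F motif, was in 0 of 913, which allows a share of up to 0.329% (3 peaks of the total), against 0.351% of failing candidates, and the interval of the difference (−0.418 to 0.0720) includes 0. TATAAA, the TATA box, was in 22.1% against 8.27% of failing candidates and 21.1% of TSS peaks, and TAATTA, the homeodomain core, in 10.7% against 5.83%. Failing candidates weighted to the GC content of the peaks held TATAAA in 20% and TAATTA in 10.8%. GCCATT (Pho) was in 4.16% against 9.67%, or 7.0% when weighted, and CACACACA repeats in 1.10% against 3.75%, or 2.07% when weighted. AAAAAAAA was in 7.89% against 5.76%, but weighted failing candidates held it in 12.6%, which turns the direction.

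The other motifs differed little from failing candidates at like GC content. The GATA factor motif GATAAG was in 4.27% against 4.11% of weighted failing candidates, the Twist motif CATATG in 3.94% against 3.21%, the TEAD motif GGAATG in 3.61% against 3.97%, the Zelda motif CAGGTA in 2.41% against 1.67%, and the Initiator motif TCAGTT in 7.78% against 6.49%. The Su(H) motif GTGGGAA was in 1.10% of both, the Runt motif AACCACA in 1.10% against 1.19%, the GAGA factor motif GAGAGAG in 0.767% against 0.921%, the E-box CACGTG in 0.767% against 0.770%, the AP-1 motif TGACTCA in 0.548% against 0.657% and the Su(Hw) motif TGCATACTT in 0.219% against 0.226%. A match describes these letters in this window and is not a binding site.

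Among 6-mers, the 10 that most separated TSS peaks from failing TSS candidates, a choice that used no distal intronic peak, were all built of A and T. AAAATA led with 38.1% of TSS peaks, and 33.5% of distal intronic peaks held it (30.5 to 36.6%), against 16.3% of failing candidates and 34.6% of those weighted to the same GC content. For AAATAT the values were 31.1% of distal intronic peaks, 13.5% of failing candidates and 29.4% when weighted. The 10 6-mers with the largest excess over failing candidates on 2L and 2R were also of A and T. AATATA was in 25% of the 605 peaks on 3L, 3R, 4 and X against 8.25% of failing candidates there, and 21.8% when weighted.

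With failing candidates weighted to the GC content of the peaks, 6-mers that hold CACTG or CAGTG came up, a comparison added after the data were seen. The 10 with the largest excess on 2L and 2R included CAGTGC and CAGTGG. On 3L, 3R, 4 and X, which that choice did not use, the interval lay above the share of weighted failing candidates for 4 of the 10 and did not for the other 6. CAGTGG was in 7.77% of peaks (5.89 to 10.2%) against 3.43% of weighted failing candidates, and CAGTGC in 7.27% (5.46 to 9.62%) against 3.88%. GAGAAA was in 12.4% there (10 to 15.3%) against 8.83%, and AGTGCA in 10.2% (8.08 to 12.9%) against 6.96%. The other 6 were CAAGTG with 6.45% against 5.83% of weighted failing candidates, ACCAAA with 6.94% against 8.88%, TACAAA with 13.9% against 13.4%, AGAAAA with 20.3% against 20.9%, AACATA with 11.6% against 9.85% and AGTGGG with 5.29% against 3.92%.

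The 5-mer CACTG, read on both strands, was chosen on all 913 peaks, as the 5-mer in most (3) of the 10 6-mers with the largest excess over weighted failing candidates, so its excess was fixed by the choice and its values are a description. It was in 221 distal intronic peaks (24.2%), 18.3% of failing candidates, 13.6% of failing candidates at like GC content, and 23.5% of TSS peaks. It stood close to the summit, with 3.58 and 4.24 matches per kb in the 100 bp to the left and right of it, and 1.86 and 1.46 per kb in the outermost bins centred 950 bp away. Failing candidates had 2.12 and 2.05 beside the summit. The share was highest among weaker peaks, with 28.9% at signals of 83.2 to 111 and 17.1% at signals of 171 or more, where failing candidates at like GC content had 12.3%. Among peaks above the median signal of the whole list it was 17.9% (14.2 to 22.4%). That was not above the 18.3% of unweighted failing candidates, while failing candidates at like GC content had 12.2%.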

How the data were processed

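Per the deposited notes, the authors called peaks on dm6 from each replicate's alignments and from both together, and used 1 more file of unstated kind. Which caller and aligner were used is not given in the sources used here, nor are their versions. The signal is the authors' value per peak, deposited with no stated scaling between lists; here it describes peaks inside 1 list. The deposited score is the IDR score. Depth is unknown, since the lists hold no read counts. For 16 columns of the ranked lists no sample could be named, and they were left out.

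Summits were placed on the Ensembl annotation, release 115, leaving out transposable element entries, and on the RefSeq genome of the same assembly. Overlap was 1 shared base. Shares have Wilson, differences Newcombe and densities exact Poisson 95% intervals, all for counting error over peaks; with 1 group no p-value was computed. The overlap, interval and 6-mer steps were tested on simulated data. Python, numpy, pandas and scipy were used (scipy 1.17.1).

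Genes were named by a rule: hosts of the 20 strongest peaks found in both replicate lists, the 10 genes with the most peaks, up to 4 hosts a list by signal, and the 3 genes on each side of the 2000 bp cut. Genes without a peak were the largest by territory and were chosen after their values were seen. The peaks, lists and motifs were chosen with earlier results of these data known.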

Additional observations from a re-analysis of the deposited data

How the results depend on the processing

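Of the alternatives, 21 moved a value beyond its interval or by over 1.5 times. A further 2 lost a difference whose interval had excluded 0, and 1 reversed the sign of a difference. Leaving out 1 replicate gave 530 to 562 peaks, 12.8 to 13.6 peaks per Mb and 315 to 339 host genes, in shorter lists that hold fewer peaks. Their share of the list also fell, to 15.6% in each replicate's list from 18.6% in the combined list. Peaks above the median signal numbered 340, of which 89.4% were in both replicate lists. They were 13.8% of all peaks above that median. A cut of 5000 bp gave 529 peaks in 322 genes, 18.7 per Mb, with 2.12% of candidates called, and its difference from nearer intronic peaks in the top 10% was −1.45 points, with an interval that includes 0. The share in both replicate lists was 33.6% with 50% reciprocal overlap and 97.7% against unthresholded candidates, where the difference from TSS peaks was −0.917 points. For CACTG, chosen on these peaks, the difference from unweighted failing candidates was −0.309 points in peaks above the median signal. This is the reversed sign, and its interval (−4.04 to 4.14) includes 0. The cause was not tested. Counting transposable element entries as genes, an alternative chosen after seeing the data, gave 846 peaks. The GC difference kept its direction in every alternative tried, from 28.4 to 55.5 points. No paired analysis was possible because the samples form 1 group.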
